A study of Arabidopsis thaliana with 12 samples.

Results

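The comparison described here set unwounded isi1-2 plants against unwounded wild-type (WT) plants of Arabidopsis thaliana. Its 6 RNA sequencing libraries are those of 12 that the sample labels mark as unwounded. Each genotype had 3 replicates, and the other 6 libraries came from the same genotypes 1 h after leaf 8 had been crushed. All plants were of the Col-0 accession, 5 weeks old and grown in pots under short days, and only leaf 13 was sampled. The mutant isi1-2 is a single insertion line from the SALK collection in the gene ISI1 (AT4G27750), so a difference between genotypes cannot be assigned to ISI1 apart from any other change that this line carries. WT was unmodified Col-0. Each replicate pooled leaf 13 of 2 plants, and the labels call the replicates biological. The hour of harvest, the sequencing batch and any order of sampling are not stated in the labels. The p-values rest on the spread between such pooled samples within all 4 groups, the wounded ones included.

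ISI1 is short for IMPAIRED SUCROSE INDUCTION 1. The gene is known from a screen for mutants in which sugar no longer fully induced a reporter driven by the promoter of APL3, a subunit of the enzyme that commits glucose to starch. It encodes a plant-specific protein with expression in the vasculature, and its loss has been linked to altered carbohydrate allocation between leaf and growing organs. In a rosette leaf, photosynthesis supplies sucrose and transient starch by day, phloem exports the sucrose, and the circadian clock times both processes. Unwounded plants give the state of the mutant with no wound signal from another leaf.

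The 6 libraries held 23307790 to 28916057 counts over genes, with 21036 to 21198 genes detected, and 3 counts in a library correspond to 0.104 to 0.129 CPM, the counts of a gene scaled to a common library size. The leaf identity of the samples was plain in the marker genes. The summed level of 6 mesophyll markers was 39813 to 41818 CPM in isi1-2 leaves, against 36107 to 40255 CPM in WT leaves. The root markers PYK10 and CASP1 had 0 counts in every unwounded library, and of the flower markers only AG passed the filter on low counts, at no more than 1.89 CPM. The first principal component of the 6 libraries held 31.8% of the variance. It placed the isi1-2 libraries at 22.4, 4.58 and 16.6 and the WT libraries at -9.56, -26.2 and -7.85, with no overlap. The second held 21.6%, with isi1-2 at 7.91, 11.2 and -4.05, inside the range of WT at -22.7, 17.3 and -9.73. By log2 CPM, isi1-2 replicate 2 correlated with WT replicate 3 at 0.9921, near its 0.9924 and 0.9923 with the other isi1-2 replicates. The libraries isi1-2 replicate 3 and WT replicate 2 stood apart from the others in iron-related genes, and results are given with and without them beside those genes.

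The mutated gene was examined first. ISI1 had 1 count in each of the 3 isi1-2 libraries, against 269, 254 and 270 counts in the WT libraries. On the pooled counts ISI1 was 287-fold lower in isi1-2, with a 95% exact interval of 97.7 to 1393 that covers counting error only. In wounded leaves isi1-2 had 4, 1 and 1 counts, against 253, 337 and 315 counts in WT. The level of ISI1 thus separated the genotypes in all 12 libraries as they are labelled. The 10 tested genes on either side of ISI1 on chromosome 4 had log2 fold changes of -0.17 to 1.08, and none of these 20 genes was called. The highest value among them belonged to AT4G27660, a gene with fewer than 1 CPM in each group (unadjusted p = 0.0236).

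Few transcripts were called as different between unwounded isi1-2 and unwounded WT leaves. Of 18698 genes tested, 24 (0.128%) were called at a Benjamini-Hochberg adjusted p under 0.05 with edgeR's quasi-likelihood test, 16 of them higher (0.0856%) and 8 lower (0.0428%) in isi1-2. The called genes included ISI1 itself, the terpene synthase TPS03, the clock components FKF1 and PRR3, the ammonium transporter AMT1;1 and the nitrate reductase NIA2. In all 24 the 3 isi1-2 libraries lay apart from the 3 WT libraries, whereas over all genes tested 8.31% lay above and 8.21% below WT in every library. The absolute log2 difference had a median of 0.69 among the 23 called genes other than ISI1 and of 0.095 among all tested genes. The separation and the size follow in part from choosing the genes by a test on these same libraries, so neither is further support for the calls. Of the 24, 6 were changed at least 2-fold, and whatever the p 0.572% of all genes were at least 2-fold higher and 0.567% at least 2-fold lower. Without adjustment, 1707 genes (9.13%) had p under 0.05, 860 of them higher (4.6%) and 847 lower (4.53%).

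The count of called genes was sensitive to single libraries. It was 6 without isi1-2 replicate 1, 7 without WT replicate 3 and 11 to 15 without each of the other unwounded libraries. DESeq2 on the same 12 libraries called 92 genes, and edgeR on the 6 unwounded libraries alone called 81. ISI1, AT2G42640, AT1G64795, AT1G07050, FKF1 and AT4G31980 were called in every fit that left out 1 unwounded library. TPS03 and AT1G17665 lost their call without isi1-2 replicate 1 or WT replicate 3, and SPL4 also without WT replicate 1. AT5G23240, BBX8 and CIPK21 kept it in 2 of these 6 fits, PRR3, AT4G16745, AT4G29020 and ELI3-1 in 1, and the other 8 in 0. Over these fits and the other alternatives the direction of every called gene stayed the same.

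**Figure D1:**
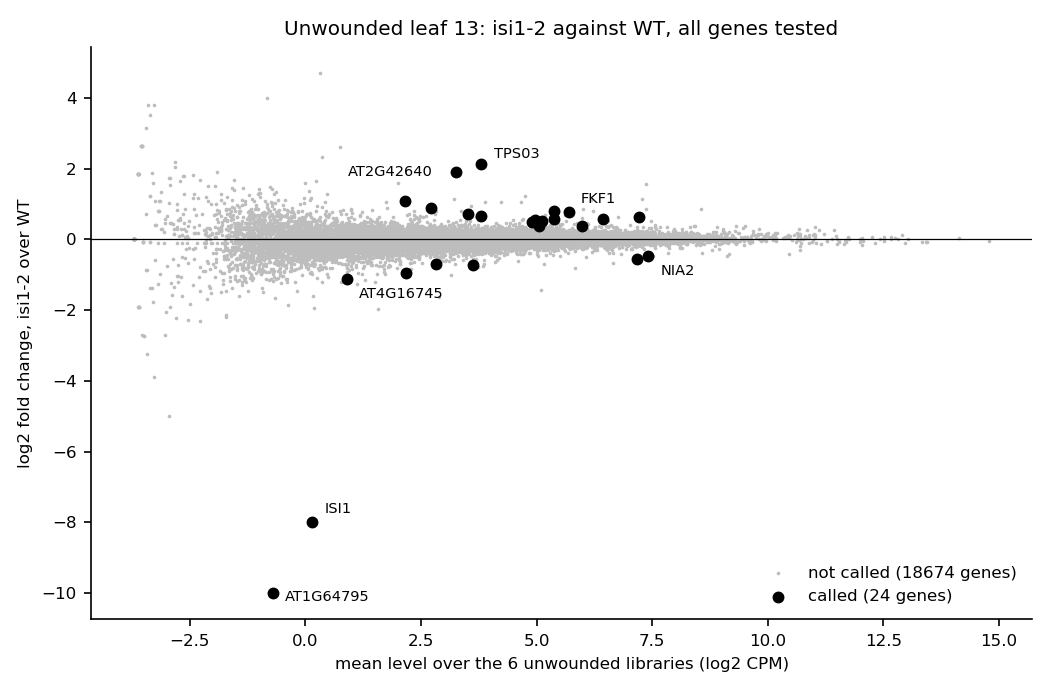
Log2 fold change between unwounded isi1-2 and unwounded WT (y axis) against the mean level over the 6 unwounded libraries in log2 CPM (x axis), 1 point per tested gene, with the 24 called genes in black. ISI1 and AT1G64795 sit far below the other genes, and most of the other called genes lie within 1 log2 unit of 0.

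The clock list held FKF1 and PRR3 among the called genes, both higher in isi1-2. FKF1 (AT1G68050), a blue-light receptor and F-box protein that removes repressors of flowering in the afternoon, had 69.8, 65.8 and 68.1 CPM in isi1-2 leaves, against 45.95, 35.5 and 36.8 CPM in WT leaves. Every isi1-2 library lay above every WT library, and the log2 fold change was 0.78 ± 0.083 SE (adjusted p = 2.44e-04 by edgeR). PRR3 (AT5G60100), a pseudo-response regulator that stabilises the clock protein TOC1, had 36.4, 35.2 and 34.6 CPM in isi1-2 leaves, against 26.8, 26.4 and 22.01 CPM in WT leaves. The groups did not overlap (log2 fold change 0.50 ± 0.083 SE; adjusted p = 0.0277 by edgeR).

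Further called genes encode transcription factors or CCT-domain proteins, a class named after CONSTANS, CONSTANS-LIKE and TOC1. AT1G07050, annotated as a CCT motif protein, had 54.7, 53.6 and 55.6 CPM in isi1-2 leaves, against 35.8, 28.02 and 30.1 CPM in WT leaves (log2 fold change 0.80 ± 0.082 SE; adjusted p = 1.89e-04 by edgeR). BBX8 (AT5G48250), a B-box zinc finger protein with a CCT domain, had 44.3, 41.6 and 39.02 CPM in isi1-2 leaves, against 32.9, 27.4 and 26.8 CPM in WT leaves. Its log2 fold change was 0.52 ± 0.080 SE (adjusted p = 0.0151 by edgeR). For SPL4 (AT1G53160), a SQUAMOSA-type factor that promotes the floral transition and is a target of the microRNA miR156, the levels were 10.2, 8.08 and 8.31 CPM in isi1-2 leaves and 4.599, 5.23 and 4.43 CPM in WT leaves. The 3 isi1-2 libraries of each of these genes were all above the 3 WT libraries, and SPL4 had a log2 fold change of 0.90 ± 0.13 SE (adjusted p = 0.00971 by edgeR). Of the 9 tested genes of a flowering-time list none was called, with a median of -0.14 and 2 positive values. AGL20 had a log2 fold change of 0.26, with every isi1-2 library above WT. SPL9 had one of -0.21, with overlapping groups. FLC, a repressor of flowering below the level used for naming list members, stood at 1.34, 0.1704 and 0.535 CPM in isi1-2 leaves. In WT leaves it had 2.36, 1.43 and 2.43 CPM (edgeR adjusted p = 0.507).

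Across the whole list of 25 clock genes, 2 were called, both higher in isi1-2, where 0.128% of all genes were called and 0.0856% called higher. The median of the list was -0.069, and it ranged from -0.069 to -0.010 without 1 library each and was 0.011 without isi1-2 replicate 3 and WT replicate 2. The members fell on opposite sides of 0 by the time of day at which they are known to peak, a division made after the values were seen and therefore given without a test. All 9 members that peak in the afternoon or evening had positive log2 fold changes, with a median of 0.40, and in 7 of them the groups did not overlap. Of the 13 members that peak around dawn or in the morning, 12 had negative values, with a median of -0.23, and 8 lay below WT in every library. The share of all genes that lay apart in one direction was 8.31% above and 8.21% below. The hour and order of harvest are not stated for either genotype, so genotype and time of sampling cannot be told apart in these genes.

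Among the evening-phased members, TOC1, a repressor of the morning genes, had 69.8, 62.9 and 73.7 CPM in isi1-2 leaves, against 54.01, 46.98 and 50.04 CPM in WT leaves (log2 fold change 0.45; adjusted p = 0.39 by edgeR). PRR5, a related repressor, had 106, 108 and 122 CPM in isi1-2 leaves and 94.1, 80.4 and 80.3 CPM in WT leaves (log2 fold change 0.40; adjusted p = 0.156 by edgeR). GI, a partner of FKF1, and LUX, a member of the evening complex, also lay above WT in every library, with log2 fold changes of 0.17 and 0.34. On the morning side, CCA1, one of the myb factors at the core of the oscillator, had 6.98, 7.33 and 7.89 CPM in isi1-2 leaves, against 12.2, 8.46 and 12.1 CPM in WT leaves. Its log2 fold change was -0.56 ± 0.17 SE (adjusted p = 0.313 by edgeR), while LHY, its close homologue, had a value of 0.11 and overlapping groups. LNK2 and LNK4, coactivators that act with the morning-expressed RVE factors, stood at -0.37 and -0.36. None of the morning members passed the threshold. Summed over the 25 genes, the level was 1176 to 1194 CPM in isi1-2 leaves and 1108 to 1195 CPM in WT leaves, so the summed ranges overlapped.

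**Figure D2:**
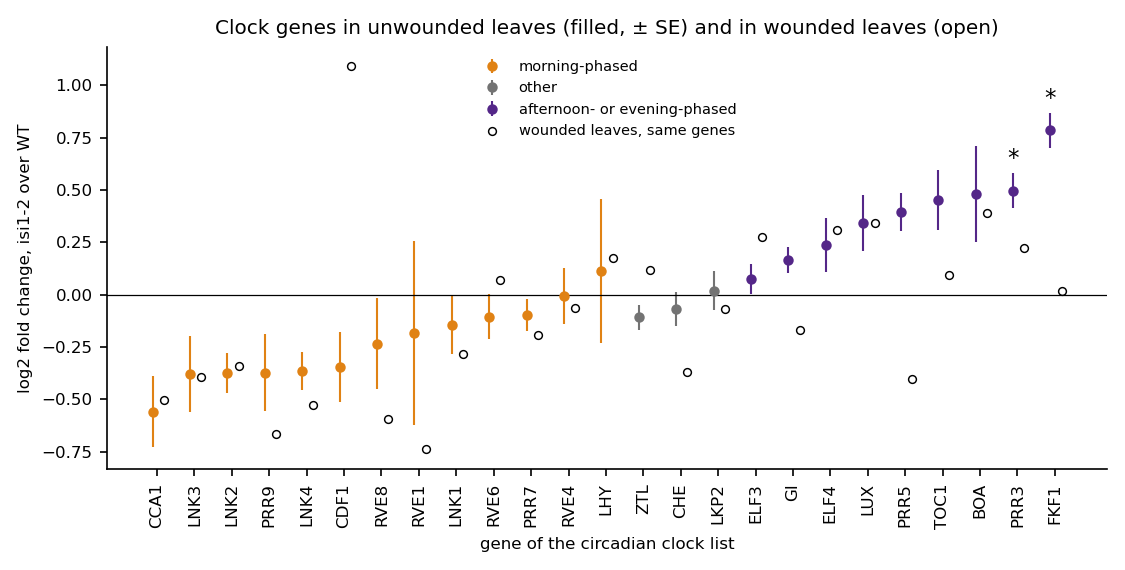
Log2 fold change between isi1-2 and WT for the 25 genes of the clock list (x axis), in unwounded leaves as filled points with SE and in wounded leaves as open points, coloured by known time of peak. Stars mark FKF1 and PRR3, the members called in unwounded leaves; in unwounded leaves all 9 evening-phased members lie above 0 and 12 of 13 morning-phased members below it, and in wounded leaves 7 of 9 and 10 of 13 do.

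The called genes also included AMT1;1, NIA2 and GAT1, which act on nitrogen compounds. AMT1;1 (AT4G13510), a high-affinity ammonium transporter, had 104, 98.8 and 112 CPM in isi1-2 leaves, against 71.5, 66.9 and 74.9 CPM in WT leaves. The groups were separate, and the gene was called higher in isi1-2 (log2 fold change 0.56 ± 0.095 SE; adjusted p = 0.0341 by edgeR). NIA2 (AT1G37130), the major nitrate reductase of leaves, had 139, 155 and 136 CPM in isi1-2 leaves, against 191, 215 and 194 CPM in WT leaves. All 3 isi1-2 libraries lay below WT (log2 fold change -0.48 ± 0.084 SE; adjusted p = 0.0355 by edgeR). GAT1 (AT1G08230), a transporter of the non-protein amino acid GABA, had 3.23, 2.86 and 3.58 CPM in isi1-2 leaves, against 7.08, 5.79 and 5.77 CPM in WT leaves. It was the 1 called gene of 6 tested on a list of GABA genes with a median of 0.044, where 0.0428% of all genes were called lower. GAT1 was lower in isi1-2, near the threshold (log2 fold change -0.95 ± 0.18 SE; adjusted p = 0.0492 by edgeR). The calls of all 3 genes were lost in each fit that left out 1 unwounded library. That of GAT1 was also lost under RLE scaling and at a minimum count of 50.

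A list of 26 nitrate and ammonium genes was drawn up after these calls had been seen, and 23 of them were tested. Since AMT1;1 and NIA2 prompted the list, their calls were known when it was made. They were the only members called, where 0.128% of all genes were called, and the median log2 fold change was 0.059, against -0.0022 over all genes. The ammonium transporter AMT1;2 went the other way from AMT1;1, with 3.04, 4.397 and 3.21 CPM in isi1-2 leaves and 6.68, 6.09 and 6.19 CPM in WT leaves (log2 fold change -0.83; adjusted p = 0.0841 by edgeR). The nitrate transporter NRT1.5, which loads nitrate into the xylem, had 15.2, 13.4 and 12.3 CPM in isi1-2 leaves, against 8.303, 7.67 and 7.36 CPM in WT leaves (log2 fold change 0.81; adjusted p = 0.156 by edgeR). Both missed the threshold although their groups did not overlap. The assimilation genes downstream of nitrate reductase, NIR1, GLN2 and GLU1, which encode nitrite reductase, plastid glutamine synthetase and ferredoxin-dependent glutamate synthase, had log2 fold changes of -0.064, 0.10 and 0.051.

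The largest called increase was in a gene of volatile synthesis. TPS03 (AT4G16740), which encodes a terpene synthase, had 29.6, 30.9 and 28.5 CPM in isi1-2 leaves, against 8.75, 4.25 and 7.36 CPM in WT leaves. The lowest isi1-2 library was far above the highest WT library, and the log2 fold change was 2.13 ± 0.23 SE (adjusted p = 0.00933 by edgeR). The neighbouring gene AT4G16745, which encodes an exostosin family protein, was called in the opposite direction. It had 1.15, 1.19 and 1.27 CPM in isi1-2 leaves, against 2.605, 2.48 and 2.803 CPM in WT leaves (log2 fold change -1.12 ± 0.18 SE; adjusted p = 0.0185 by edgeR). No other of the 9 tested genes of a terpene and leaf volatile list was called, and the median of the list was -0.17. DXS, the entry enzyme of the plastid isoprenoid pathway, had 673, 697 and 656 CPM in isi1-2 leaves, against 739, 760.1 and 779 CPM in WT leaves (log2 fold change -0.17; adjusted p = 0.472 by edgeR).

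A pair of genes of unknown or little-known function had the lowest adjusted p besides ISI1. AT2G42640, annotated as a MAP kinase kinase kinase-like protein, had 18.7, 19.4 and 17.4 CPM in isi1-2 leaves, against 4.93, 5.34 and 4.43 CPM in WT leaves. The values within each genotype were close, and the log2 fold change was 1.91 ± 0.10 SE (adjusted p = 3.95e-08 by edgeR). AT1G64795, an uncharacterized gene, had 0 counts in every isi1-2 library, against 143, 101 and 121 counts in the WT libraries. Set against the floor of 3 counts per library, it was at least 43.6-fold lower in isi1-2 (edgeR adjusted p = 2.57e-06). It was also at 0 in all 3 wounded isi1-2 libraries, against 119, 121 and 110 counts in wounded WT. AT1G64795 overlaps ILA (AT1G64790) on the opposite strand and lies 2 tested genes away from AMT1;2. ILA itself had a log2 fold change of 0.028, with overlapping groups.

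**Figure D3:**
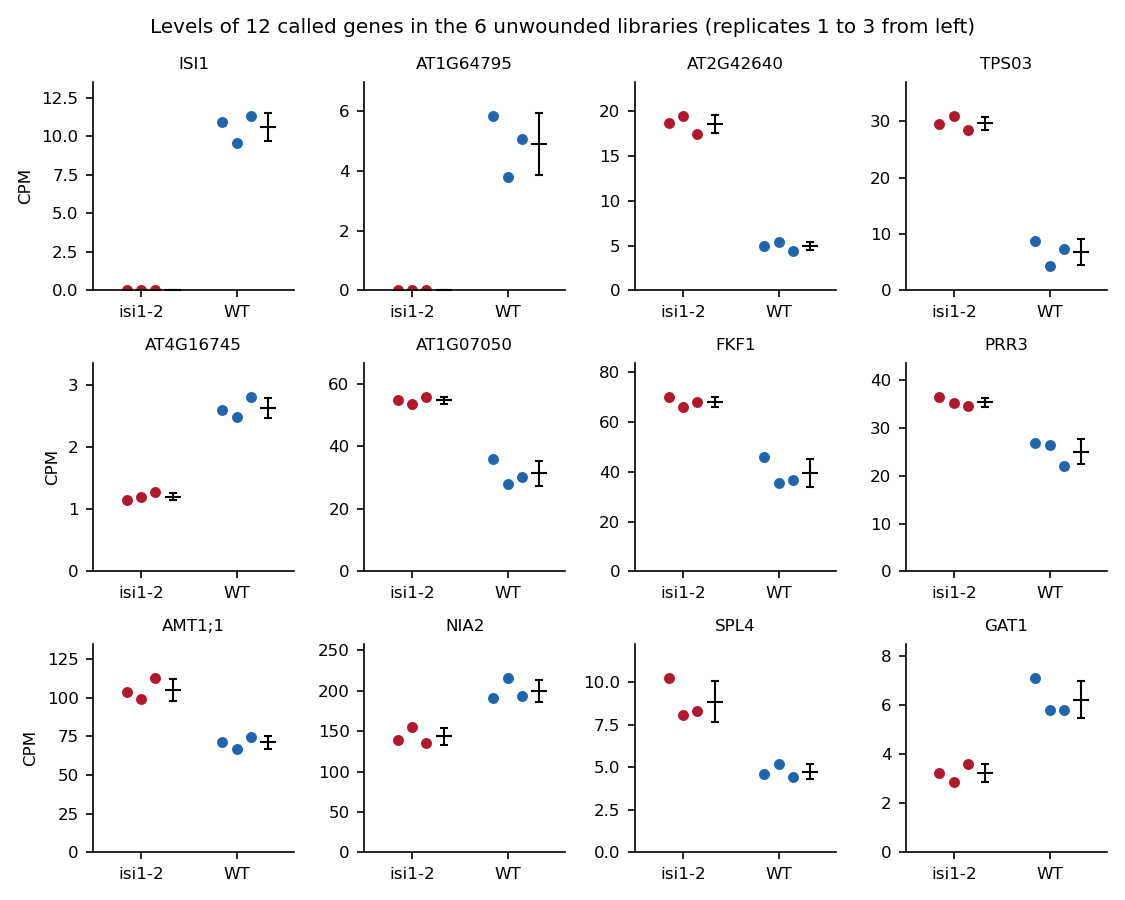
Levels in CPM of 12 called genes in the 3 unwounded isi1-2 libraries (red, left) and the 3 unwounded WT libraries (blue, right), with the mean and SD (n = 3) beside each group. No panel shows an overlap between genotypes; ISI1 and AT1G64795 are at or near 0 in isi1-2.

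The other called genes had smaller changes and varied roles. AT1G17665, annotated as a CA-responsive protein, had 6.38, 5.18 and 7.81 CPM in isi1-2 leaves, against 3.46, 3.27 and 2.34 CPM in WT leaves (log2 fold change 1.08; adjusted p = 0.00929 by edgeR). AT4G31980, annotated as a PPPDE thiol peptidase, had 13.95, 15.03 and 14.8 CPM in isi1-2 leaves, against 9.12, 8.27 and 9.33 CPM in WT leaves (log2 fold change 0.71; adjusted p = 0.00204 by edgeR). Both were higher in every isi1-2 library than in any WT library. CIPK21 (AT5G57630), a kinase that acts with calcineurin B-like calcium sensors, had 41.6, 32.8 and 38.98 CPM in isi1-2 leaves, against 28.6, 23.4 and 25.9 CPM in WT leaves (log2 fold change 0.54). CRK19 (AT4G23270), a cysteine-rich receptor-like kinase, had 71.3, 69.6 and 73.9 CPM in isi1-2 leaves, against 58.8, 52.5 and 55.4 CPM in WT leaves (log2 fold change 0.36). These kinases were called at edgeR adjusted p = 0.0246 and 0.0366. HCAR (AT1G04620), a reductase of the chlorophyll cycle that turns chlorophyll b derivatives back to chlorophyll a, had 39.2, 36.5 and 36.8 CPM in isi1-2 leaves, against 29.02, 29.9 and 28.2 CPM in WT leaves (log2 fold change 0.37; adjusted p = 0.0341 by edgeR). AT5G23240, with a DNAJ chaperone domain, AT5G35735, of an auxin-responsive family, and the uncharacterized AT4G13577 were also higher, with log2 fold changes of 0.62, 0.56 and 0.67 and edgeR adjusted p = 0.0186, 0.0341 and 0.0412 in that order.

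The remaining genes called lower in isi1-2 were ELI3-1, AT2G42040 and AT4G29020. ELI3-1 (AT4G37980), a cinnamyl alcohol dehydrogenase family member first known as a pathogen-activated gene, had 109, 115 and 136 CPM in isi1-2 leaves, against 181, 161 and 183 CPM in WT leaves (log2 fold change -0.55; adjusted p = 0.0413 by edgeR). AT2G42040, annotated as a WRC protein, had 5.57, 5.01 and 5.96 CPM in isi1-2 leaves, against 8.22, 9.06 and 9.33 CPM in WT leaves (log2 fold change -0.69; adjusted p = 0.0364 by edgeR). For AT4G29020, a glycine-rich protein gene, the levels were 7.53, 11.997 and 9.42 CPM in isi1-2 leaves and 14.98, 17.9 and 15.5 CPM in WT leaves (log2 fold change -0.74; adjusted p = 0.0412 by edgeR). By chromosome, 9 of the called genes lay on chromosome 4, 8 on chromosome 1, 5 on chromosome 5, 2 on chromosome 2 and 0 on chromosome 3. The 9 on chromosome 4 include ISI1 itself and the neighbours TPS03 and AT4G16745. Chromosome 4 held 0.317% called genes among its tested genes, the highest share of the 5, where 0.128% of all genes were called. In the RefSeq annotation FKF1, SPL4, BBX8, AMT1;1, CRK19, AT5G23240, AT4G16745 and AT1G64795 overlap a gene on the opposite strand. AT4G31980 overlaps a pair of genes on its own strand, and 10.9% of the 100-base windows of CIPK21 also occur in AT5G57565. Whether the counting used strand is not given in the sources used here, so reads of such overlapping genes may be shared.

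Because ISI1 was first described by its role in sugar-dependent expression, the genes of sugar and starch metabolism were examined as 5 lists. None of the members tested, 20 of sucrose and hexose transport, 17 of starch synthesis, 19 of starch breakdown, 19 of sucrose synthesis and cleavage and 22 of sugar signalling, was called in either direction. The median log2 fold changes were -0.017 for sucrose and hexose transport, 0.012 for starch synthesis, 0.074 for starch breakdown, 0.024 for sucrose synthesis and cleavage and -0.076 for sugar signalling and carbon starvation. Without 1 library each, the medians of sucrose and hexose transport, starch synthesis and sucrose synthesis and cleavage took both signs, starch breakdown ranged from 0.052 to 0.13 and sugar signalling from -0.15 to -0.048. APL3, the gene behind the original screen, had 22.4, 23.6 and 24.1 CPM in isi1-2 leaves, against 27.9, 21.3 and 24.2 CPM in WT leaves, with overlapping groups (log2 fold change -0.067 ± 0.094 SE; adjusted p = 0.884 by edgeR). SUC2, the sucrose transporter that loads the phloem, had 228, 207 and 206 CPM in isi1-2 leaves, against 227, 204 and 222 CPM in WT leaves (log2 fold change -0.026 ± 0.067 SE; adjusted p = 0.943 by edgeR). The direction of both values turned when WT replicate 1 was left out.

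Some members of these lists lay apart between the genotypes without passing the threshold. The cell wall invertase CWINV1, which splits sucrose outside the cell, had 16.5, 17.9 and 15.8 CPM in isi1-2 leaves, against 6.68, 8.95 and 10.4 CPM in WT leaves (log2 fold change 0.95 ± 0.19 SE; adjusted p = 0.156 by edgeR). SWEET11, a sucrose exporter that feeds the phloem, had 44.4, 36.9 and 39.3 CPM in isi1-2 leaves, against 28.5, 20.5 and 27.5 CPM in WT leaves (log2 fold change 0.66 ± 0.14 SE; adjusted p = 0.156 by edgeR). Its partner SWEET12 had a log2 fold change of -0.017 and overlapping groups. The sucrose phosphate synthases stood on opposite sides of 0, with SPS4F at 0.34 and every isi1-2 library above WT, and SPS3F at -0.61, with every isi1-2 library below WT. Before adjustment, 6 of 19 tested genes of sucrose synthesis and cleavage had p under 0.05 in the higher direction, where 4.6% of all genes did, and 2 in the lower direction, where 4.53% did.

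In starch breakdown, 5 of 19 tested genes had unadjusted p under 0.05 in the higher direction (4.6% of all genes) and 1 in the lower (4.53% of all genes). The 5 were PWD and SEX1, the dikinases that phosphorylate starch at the start of its breakdown, the phosphatase SEX4, the cytosolic glucan phosphorylase PHS2 and the transglucosidase DPE2. PWD had 332, 327 and 317 CPM in isi1-2 leaves, against 279, 278 and 283 CPM in WT leaves (log2 fold change 0.22; adjusted p = 0.166 by edgeR). PHS2 had 827, 918 and 919 CPM in isi1-2 leaves, against 814, 702 and 759 CPM in WT leaves (log2 fold change 0.23; adjusted p = 0.372 by edgeR). In both genes every isi1-2 library lay above every WT library, by a small margin. Among starch synthesis genes GBSS1, the synthase of amylose, had 5.01, 6.34 and 5.92 CPM in isi1-2 leaves, against 10.1, 8.01 and 9.96 CPM in WT leaves (log2 fold change -0.70; adjusted p = 0.446 by edgeR). Of 22 tested sugar-signalling genes, 5 had positive log2 fold changes, 5 lay below WT in every library (8.21% of all genes) and 1 lay above (8.31%). The sugar-repressed asparagine synthetase DIN6 had 8.65, 6.27 and 5.67 CPM in isi1-2 leaves and 6.19, 11.3 and 10.3 CPM in WT leaves, with overlapping groups.

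Photosynthesis genes were nearly level. None of 48 nuclear photosystem and Rubisco genes and none of 17 chlorophyll synthesis genes was called, with medians of 0.018 and -0.041. The list member nearest to the threshold was RBCS2B, a small subunit of Rubisco, with 2171, 2520.4 and 2297 CPM in isi1-2 leaves, against 1742, 1982 and 1786 CPM in WT leaves (log2 fold change 0.34 ± 0.065 SE; adjusted p = 0.0576 by edgeR). FNR2, a ferredoxin-NADP reductase of the leaf chloroplast, which is on neither list, was likewise just short of the threshold at 0.28 (edgeR adjusted p = 0.0512). The light-harvesting gene LHCB2.3 had 1140.1, 1328 and 1214 CPM in isi1-2 leaves, against 1534, 1657 and 1695 CPM in WT leaves (log2 fold change -0.41; adjusted p = 0.545 by edgeR). The other 3 genes with the lowest p among those not called were DREB2C, a stress transcription factor, at 1.28, the acetamidase gene AT4G37550 at -0.43 and the glycosyl hydrolase GH9B8 at -0.56.

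Jasmonate and wound-response genes were examined because the study also wounded these genotypes. None of 37 tested genes of jasmonate synthesis, turnover and signalling was called, and the median was -0.024, with a range of -0.089 to 0.073 without 1 library each. JAZ10, a repressor that jasmonate induces strongly, had 0.928, 1.26 and 1.27 CPM in isi1-2 leaves, against 1.14, 1.09 and 1.297 CPM in WT leaves, with overlapping groups (log2 fold change -0.024 ± 0.27 SE; adjusted p = 0.99 by edgeR). VSP2, a jasmonate-induced storage protein, had 3.302, 5.66 and 5.96 CPM in isi1-2 leaves, against 33.3, 6.28 and 6.86 CPM in WT leaves (log2 fold change -1.63 ± 0.72 SE; adjusted p = 0.557 by edgeR). WT replicate 1 stood far above the other WT libraries, and without it the log2 fold change was -0.40. Of 17 genes of the rapid wound and touch response none was called, and their median was 0.073. It ranged from 0.0 to 0.22 without 1 library each and was 0.34 without isi1-2 replicate 3 and WT replicate 2. Their summed level was 79.2 to 92.7 CPM in isi1-2 leaves, against 65.3 to 70.5 CPM in WT leaves, a separation to which the touch gene TCH3 contributed with 50.2, 30.7 and 39.2 CPM in isi1-2 leaves and 23.1, 23.8 and 29.2 CPM in WT leaves (edgeR adjusted p = 0.666). The salicylic acid and defence list held no called gene among 16, with a median of 0.15 that was 0.017 without WT replicate 2, 0.25 without isi1-2 replicate 2 and 0.0093 without isi1-2 replicate 3 and WT replicate 2.

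Of 16 mitotic genes none was called and the median was -0.20. In 2 of them the log2 fold change was positive, as in 9207 of 18698 genes tested, and 7 lay below WT in every library, where 8.21% of all genes did. CDC20.1, an activator of the anaphase-promoting complex, had 7.38, 7.87 and 8.31 CPM in isi1-2 leaves, against 10.4, 10.005 and 10.96 CPM in WT leaves (log2 fold change -0.41 ± 0.11 SE; adjusted p = 0.246 by edgeR). The mitotic kinase CDKB2;1 had 8.68, 9.47 and 10.03 CPM in isi1-2 leaves, against 11.1, 12.6 and 11.7 CPM in WT leaves (log2 fold change -0.33; adjusted p = 0.313 by edgeR). Summed over the list, the level was 79.3 to 88.5 CPM in isi1-2 leaves and 96.8 to 101 CPM in WT leaves, without overlap. In whole leaves, fewer cells of a type and less RNA per cell cannot be told apart. The α-expansins, which loosen cell walls during growth, also held no called gene among 10, with a median of 0.17, and EXPA11 had 54.7, 47.8 and 60.7 CPM in isi1-2 leaves, against 44.04, 38.4 and 39.5 CPM in WT leaves (log2 fold change 0.42; adjusted p = 0.156 by edgeR).

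Several of the larger differences that were not called were in genes of iron homeostasis. Of 20 genes with a mean of at least 1 log2 CPM and a change of at least 2-fold in either direction, 3 were called. Another 7, none of them called, belong to a list of 27 iron-deficiency and iron-storage genes drawn up after these values had been seen. In that list 25 genes were tested and 0 were called, with 8 at an unadjusted p under 0.05 in the higher direction (4.6% of all genes) and 1 in the lower (4.53% of all genes). BTS, an E3 ligase that accumulates under iron deficiency and limits the response, had 169, 157 and 414 CPM in isi1-2 leaves, against 126, 77.4 and 135 CPM in WT leaves (edgeR adjusted p = 0.441). ORG1, a kinase gene of the same response, had 195, 168 and 617 CPM in isi1-2 leaves, against 145, 52.3 and 135 CPM in WT leaves. In both genes isi1-2 replicate 3 was the highest library and WT replicate 2 the lowest.

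The same libraries marked the list as a whole. Isi1-2 replicate 3 was the highest of the 6 libraries for 17 of 25 genes, and WT replicate 2 was the lowest for 20, whereas over all tested genes isi1-2 replicate 3 was highest for 15.4% and WT replicate 2 lowest for 21.4%. BHLH100, a transcription factor that rises in iron-deficient leaves, had 1.52, 0.613 and 40.7 CPM in isi1-2 leaves, against 0.611, 0.0376 and 1.004 CPM in WT leaves. The ferritin FER1, which stores iron and falls when iron is short, ran the opposite way, with 29.7, 29.9 and 13.3 CPM in isi1-2 leaves and 32.7, 131 and 31.97 CPM in WT leaves. The median log2 fold change of the list was 0.85, and it was 0.057 without isi1-2 replicate 3 and WT replicate 2. In wounded leaves the median of the list was -0.24. The iron status of the plants was not measured, and its part in other differences was not tested. Without both libraries 9 genes were called between the genotypes, of which 7 were among the 24, namely ISI1, TPS03, AT2G42640, AT1G64795, AT1G07050, FKF1 and ELI3-1.

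**Figure D4:**
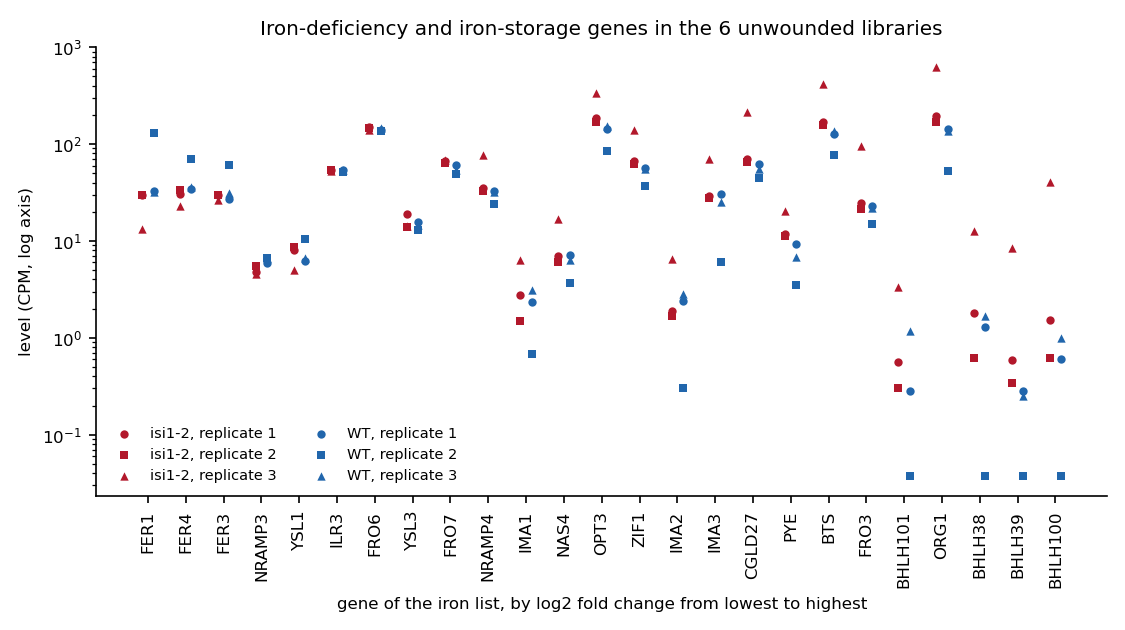
Levels in CPM on a log axis of the 25 tested iron-deficiency and iron-storage genes in the 3 unwounded isi1-2 libraries (red) and the 3 unwounded WT libraries (blue), with marker shape giving the replicate number. For most genes induced by low iron the red triangle, isi1-2 replicate 3, is the highest point and the blue square, WT replicate 2, the lowest; for FER1, FER3 and FER4 the order is turned round.

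Markers of the other cell types in a leaf showed no called gene. The summed level of 9 phloem markers was 928 to 1002 CPM in isi1-2 leaves, against 896 to 994 CPM in WT leaves. For 10 xylem markers the sums were 196 to 227 CPM in isi1-2 leaves, against 205 to 232 CPM in WT leaves. The 6 guard cell markers summed to 96.1 to 116 CPM in isi1-2 leaves and 116 to 119 CPM in WT leaves, with a median log2 fold change of -0.092. The 3 tested trichome markers summed to 4.07 to 4.26 CPM in isi1-2 leaves and 4.52 to 5.66 CPM in WT leaves. Their log2 fold changes were -0.48 to 0.087, with a median of -0.16. That median ranged from -0.53 to 0.0066 without 1 library each. The lowest was that of GL2, a trichome regulator, with 2.04, 2.28 and 2.097 CPM in isi1-2 leaves, against 2.85, 3.16 and 2.93 CPM in WT leaves (edgeR adjusted p = 0.449). In wounded leaves GL2 had a log2 fold change of 0.011. The part of these markers in the called differences was not tested.

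The remaining lists also held no called gene apart from those described. For glucosinolate genes the median was 0.0079 over 26 tested, for flavonoid and anthocyanin genes -0.16 over 10, for abscisic acid and cold response genes -0.19 over 18 and for heat shock genes -0.085 over 6. Without 1 library each these medians ranged from -0.11 to 0.14 for glucosinolate genes, -0.23 to -0.062 for flavonoid genes, -0.29 to -0.076 for abscisic acid and cold genes and -0.17 to 0.064 for heat shock genes, the last being positive without WT replicate 3. The anthocyanin regulator PAP1 had 2.04, 2.08 and 2.01 CPM in isi1-2 leaves, against 4.19, 3.12 and 2.85 CPM in WT leaves (log2 fold change -0.73; adjusted p = 0.435 by edgeR). TGG2, a myrosinase that activates glucosinolates, had 1187, 1723 and 1593 CPM in isi1-2 leaves, against 1754, 1853 and 1933 CPM in WT leaves (log2 fold change -0.30; adjusted p = 0.408 by edgeR). Both genes lay below WT in every library without passing the threshold.

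The genes called in unwounded leaves were looked at again in the 6 wounded libraries, which come from other plants of the same lines. Between wounded isi1-2 and wounded WT, edgeR called 446 of 18698 genes (2.39%), of which 261 were above WT (1.4%) and 185 below it (0.989%). Besides ISI1, 8 of the 23 genes called at rest were called there too, and all 8 in the same direction. These were AT2G42640, AT1G64795, AT4G31980, AT1G17665, TPS03, AT4G16745, NIA2 and AT4G29020. Of the 23, 19 had the same sign in wounded leaves, where 54.1% of all tested genes did.

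The size of the difference under wounding varied between genes. In wounded leaves TPS03 had 786, 732 and 618 CPM in isi1-2, against 318, 229 and 237 CPM in WT (log2 fold change 1.44 ± 0.19 SE; adjusted p = 0.00583 by edgeR). AT2G42640 had 20.5, 21.3 and 22.9 CPM in wounded isi1-2, against 3.98, 4.48 and 3.54 CPM in wounded WT (log2 fold change 2.43 ± 0.10 SE; adjusted p = 1.24e-09 by edgeR). NIA2 had 31.8, 33.7 and 37.3 CPM in wounded isi1-2, against 44.04, 54.9 and 47.03 CPM in wounded WT (log2 fold change -0.51 ± 0.088 SE; adjusted p = 0.00767 by edgeR). These 3 genes kept separate groups in wounded leaves. AMT1;1 had 82.5, 87.9 and 99.3 CPM in wounded isi1-2, against 80.6, 104 and 103 CPM in wounded WT, with overlapping groups (log2 fold change -0.091; adjusted p = 0.701 by edgeR).

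The genotype difference of FKF1 was not the same in unwounded and wounded leaves by the test of the interaction. It had 96.4, 91.5 and 89.8 CPM in wounded isi1-2, against 88.3, 88.4 and 97.4 CPM in wounded WT, and the groups overlapped (log2 fold change 0.019 ± 0.080 SE; adjusted p = 0.939 by edgeR). The interaction of genotype and wounding was -0.76 on the log2 scale ± 0.12 SE (adjusted p = 0.0376 by edgeR), and FKF1 was the only one of the 24 genes called for it, where 6 of 18698 genes (0.0321%) were called. None of the 24 passed this threshold when any one of the 3 unwounded isi1-2 libraries, WT unwounded replicate 2 or 3, isi1-2 wounded replicate 2 or WT wounded replicate 3 was left out. Of the 16 genes called higher at rest, 12 had a negative interaction at unadjusted p under 0.05 by edgeR and 1 a positive one. Of the 7 called lower besides ISI1, 2 had a positive one. Over all genes the share was 10.5% in either direction. AT4G13577 went from 0.67 at rest to -0.55 in wounded leaves (interaction -1.22, edgeR adjusted p = 0.0829). The interaction contains the difference at rest by which the called genes were chosen, so it is not independent of that choice. PRR3, BBX8 and AT1G07050 had log2 fold changes of 0.22, 0.047 and 0.24 in wounded leaves, and none was called there. In wounded leaves 7 of the 9 evening-phased clock genes had positive values, with a median of 0.22, and 10 of the 13 morning-phased genes had negative values, with a median of -0.34. From unwounded to wounded leaves, FKF1 rose by 1.21 on the log2 scale in WT and by 0.45 in isi1-2. CCA1 fell, with log2 fold changes of -3.08 in WT and -3.02 in isi1-2. The hour of harvest is not stated for either treatment, so wounding and time of day cannot be told apart in these genes.

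**Figure D5:**
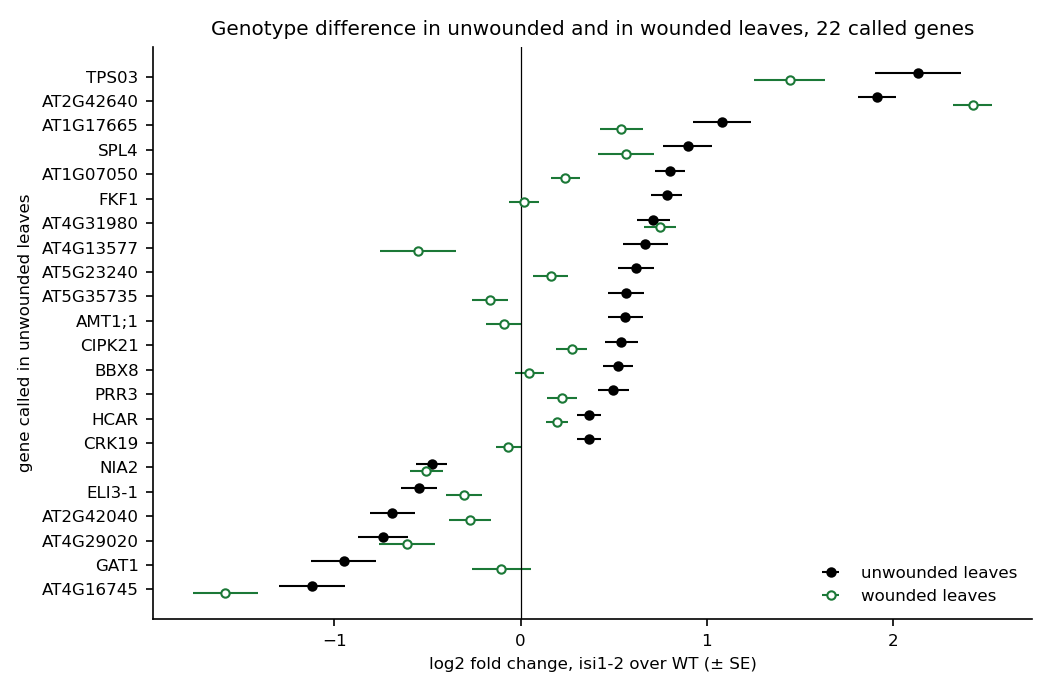
Log2 fold change between isi1-2 and WT with SE (x axis) for 22 genes called in unwounded leaves (y axis), in unwounded leaves (filled) and in wounded leaves (open). ISI1 and AT1G64795 are left out for scale; TPS03, AT2G42640, AT4G16745 and NIA2 keep their difference after wounding, whereas FKF1, BBX8 and AMT1;1 lie near 0.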

How the data were processed

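RNA sequencing was done on leaf 13 of 12 samples in 4 groups of 3. For each sample the authors deposited raw read counts by gene, as whole numbers that had not been normalized. Libraries were stranded poly-A mRNA read single-end, per the labels' protocols. The submitters' processing notes name cutadapt 1.8, STAR 2.5.3a, HTSeq 0.9.1 and the build TAIR10. The strand setting of the counting and the annotation are not given in the sources used here. The 5 summary lines per table were left out. Of 34262 identifiers, 32548 matched a RefSeq gene table, used for names, neighbours and overlaps.

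The test was edgeR's quasi-likelihood test (edgeR 4.0.16, R 4.3.3). After filterByExpr (minimum count 10, minimum total 15) and TMM scaling, the counts were fitted with glmQLFit on all 12 samples, 1 coefficient per group, so the 4 groups share 1 estimate of spread. P-values were adjusted by Benjamini-Hochberg over 18698 genes and called under 0.05. Each SE was obtained from the fold change and its F statistic. CPM is scaled by TMM. On simulated counts the fit was tested before use. No set test was run; lists are described by counts and medians. The members and lists were chosen with earlier results of these data known, and the nitrogen list, the iron list and the division of clock genes after values were seen. The rule named every called gene, ISI1, the members of each list with the largest positive and negative log2 fold change at a mean of at least 1 log2 CPM (up to 3 each way for sugar and starch lists), the 5 uncalled genes with the lowest p, and JAZ10, VSP2, APL3 and SUC2. Other members are named after their values were seen. DESeq2 1.42.0, other scalings, filters and left-out libraries were alternatives. Replicate pairs differed by more than sampling noise (chi-square per degree of freedom 4.29 to 11.1). Deviations of same-numbered unwounded samples correlated at 0.029, 0.185 and 0.053, and those of differently numbered ones at -0.12 to 0.060. Whether the replicate numbers mark pairs was not settled, and the main fit did not pair the samples. Intervals and floors cover counting error alone, because PCR copies were not separated from molecules.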

Additional observations from a re-analysis of the deposited data

Results flagged for a closer look

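FKF1 was the named gene whose genotype difference differed between unwounded and wounded leaves by a test of the difference itself. Its interaction was -0.76 on the log2 scale (edgeR adjusted p = 0.0376). FKF1 stood at 0.78 between isi1-2 and WT in unwounded leaves and at 0.019 in wounded leaves. FKF1 was named for its difference at rest, which is part of the interaction, so the test is not independent of that choice. The call was lost without any one of several single libraries, and without isi1-2 replicate 3 and WT replicate 2 together. The hour of harvest is not stated for unwounded or wounded leaves, and the reason for the difference was not tested.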

How the results depend on the processing

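The 24 calls became 92 with DESeq2, 38 with no low-count filter, 81 with the 6 unwounded samples alone, 66 with the replicate number as a block and 6 at a fold of at least 2. They were 9 without isi1-2 replicate 3 and WT replicate 2 together, an alternative chosen after seeing the data, and 6 to 48 without 1 of the 12 libraries each, 48 being without WT wounded replicate 1. All 24 genes were called by DESeq2 and 23 under the replicate block. Same-numbered samples did not all correlate best with each other: isi1-2 replicate 1 correlated best with WT replicate 3 (0.060) and isi1-2 replicate 3 with WT replicate 1 (0.056). RLE or upper-quartile scaling and a minimum count of 50 gave 23 each, and adjusted p under 0.10 gave 34.

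The 8 genes called again in wounded leaves were 6 to 9 in every alternative run. The 1 interaction call became 7 with DESeq2, 4 with no filter, 5 with the replicate block, 0 without both libraries and 0 to 6 without 1 library each.

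Of the genes named by the rule, 12 that were not called changed sign on leaving out 1 library or both of those libraries, with these lowest and highest log2 fold changes: HPL1 -0.48 to 0.012, IRX1 -0.047 to 0.23, LSF2 -0.12 to 0.017, APL3 -0.18 to 0.037, HSP90.1 -0.037 to 0.20, OZS1 -0.0032 to 0.13, CYCB1;4 -0.028 to 0.17, TCH4 -0.47 to 0.35, HXK1 -0.011 to 0.065, SUC2 -0.074 to 0.0049, MCCA -0.021 to 0.093 and JAZ10 -0.14 to 0.11. The cause was not tested. The median of each list except the mitotic and mesophyll ones moved by over 1.5 times or changed sign without 1 unwounded library or without isi1-2 replicate 3 and WT replicate 2 together. The terpene list went to 0.0 without each WT library, flowering genes to -0.23 without isi1-2 replicate 2, α-expansins to 0.068 without both libraries, GABA genes to -0.082 without both and guard cell markers to -0.023 without isi1-2 replicate 1. The scaling alternatives moved the median of all genes by less than 0.02.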
